A study of Mus musculus with 217 samples.

Results

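Brain endothelial cells (brain ECs) were compared 6 hr after lipopolysaccharide (LPS, bacterial endotoxin) with the 0 hr controls. The 12 libraries whose labels say brain at 0 hr or 6 hr were taken, and those with under 3% of their reads on genes were left out, which removed 1 library of each time and left 5 libraries at 0 hr and 5 at 6 hr of the 98 in the series. All groups came from adult RiboTagEC mice of the C57BL/6J background, Cdh5CreERT2/+; Rpl22HA/+, in which tamoxifen (5 mg by gavage, 4 doses every other day at 4 to 6 weeks of age) switches on an HA-tagged ribosomal protein Rpl22 in cells that express the VE-cadherin gene Cdh5. LPS was injected intraperitoneally at 10 mg/kg into the 6 hr mice, and the 0 hr mice are labelled as controls (injected with PBS by the study's methods). RNA on tagged ribosomes was pulled down with anti-HA antibody from whole perfused brain, so a value is the share of ribosome-bound RNA and not the total RNA of the tissue, and fewer cells of a type and less RNA per cell cannot be told apart. Heart and lung ECs of the same series (5 and 5 libraries of heart, 4 and 4 of lung) serve here only to ask where the brain response differed.

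Endotoxin is sensed through Cd14 and the Toll-like receptor Tlr4, whose adaptors lead to NF-kappaB and interferon-regulatory factors. Cytokines made in the blood and in tissues then act on the vessel wall through TNF, IL-1, IL-6 and interferon receptors. Brain ECs differ from those of other organs in having continuous tight junctions, few caveolae and a large set of carriers and efflux pumps, which together form the blood-brain barrier and are kept up by Wnt/beta-catenin signalling.

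Depth was 8757674 to 25593927 counts on genes per library, and 54.7 to 68.68% of reads fell on genes. Levels are given in CPM, a gene's counts scaled to library size with TMM factors. The file names fall into library series of distinct naming: 2 of the 0 hr and 1 of the 6 hr libraries belong to series 1, and 3 and 4 to series 2. The fit has the series as a term. The strand setting of the counting is unknown. Of 266 genes named by the rules 132 are in the text, and exons of 35 of these 132 share bases with a gene on the other strand. Among the 132 the shared bases number over 500 in Foxq1 (3200), Slc1a1 (2631), Nos3 (1334), Lef1 (1208), Notum (918), Vwa1 (913), Sox17 (804), Selp (624), Il4ra (571), Cebpd (562), Abcb1a (553), Dbp (539) and Icam1 (511). Reads of Y-linked genes were present in 4 of 5 libraries at 0 hr and 2 of 5 at 6 hr. No label says that the libraries come from separate mice, so the p-values measure only the spread between these libraries.

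The library labelled 6 hr replicate 6, the only 6 hr library of series 1, stood apart from the other 6 hr libraries. Over the 1131 genes called higher without it, its median distance from the 0 hr mean was 0.22 on the log2 scale, against 1.09 to 1.55 in the other 6 hr libraries. The other 6 hr libraries picked these genes, so part of the gap was set by that choice. The 0 hr libraries of series 1 stood at 0.29 and 0.31. Of these genes replicate 6 lay within the range of the 0 hr libraries for 911, above it for 158 and below it for 62. The 1199 genes called lower without it were picked in the same way. There the 0 hr libraries of series 1 stood at 0.32 and 0.3, and the other 6 hr libraries at -1.46 to -1.07. Replicate 6 had a median distance of 0.17 from the 0 hr mean. It was not at the 0 hr level for every gene: Lcn2, which encodes the iron-siderophore binding protein lipocalin 2, stood at 361 CPM in it, above the 6.37 to 43.1 CPM of the 0 hr libraries and below the 5985 to 9548 CPM of the other 6 hr libraries. The 6 hr library of series 1 from heart was low too. Selp was at 7.76 CPM in it against 369.9 to 778.1 in the other heart libraries at 6 hr. That of lung had only 284457 counts on genes, where 3 counts stand for 10.5 CPM. Its Selp, at 3.52 CPM, lay below the 40.5 to 64.2 CPM of the other lung libraries at 6 hr. Its Thbd, at 21.1 CPM, lay among them (0 to 50.0 CPM) and below the 627 to 4233 CPM of lung at 0 hr. Whether the label or the injection of brain 6 hr replicate 6 differs from what is recorded was not tested. So what each value with all 10 libraries stands for depends on that label. Counts and main genes are therefore given with all 10 libraries and without replicate 6, and a fold change given once comes from all 10 libraries unless said otherwise.

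**Figure D1:**
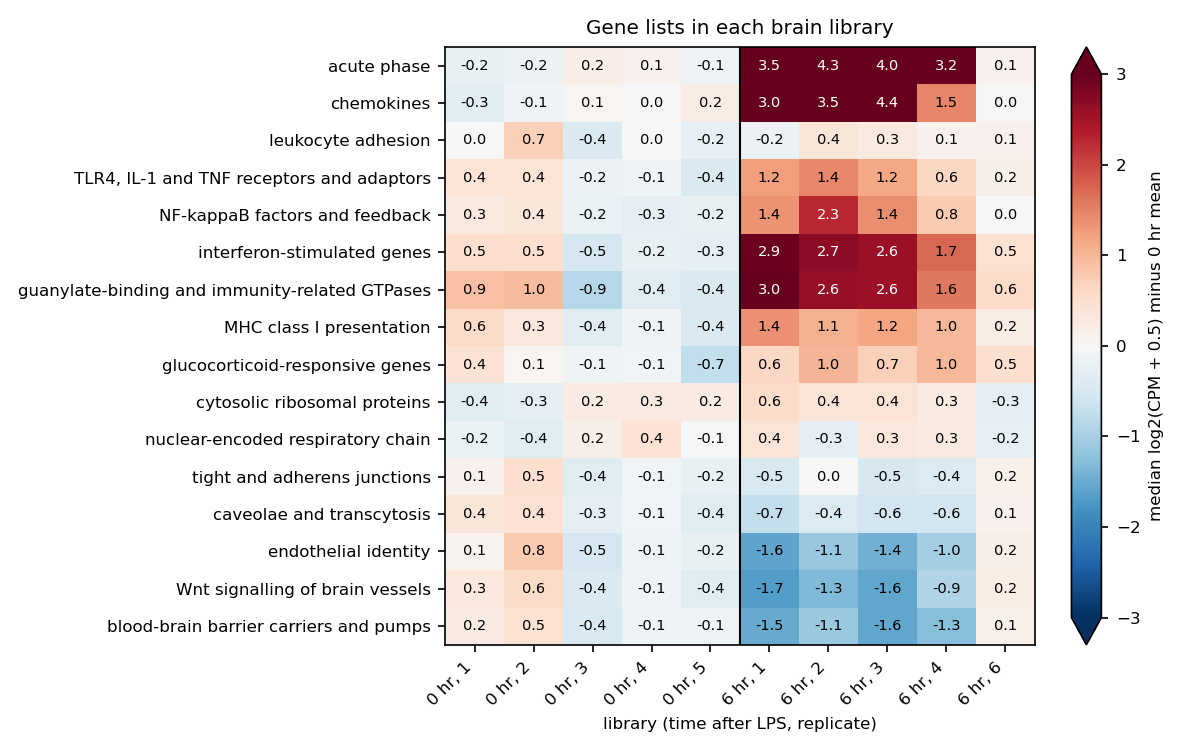
Rows are 16 of the gene lists and columns are the 10 brain libraries (time and replicate), with colour and printed value giving the median over the list's tested members of log2(CPM + 0.5) minus the 0 hr mean. The acute phase list stood at 3.25 to 4.32 in 6 hr replicates 1 to 4 and at 0.12 in replicate 6, and the list of blood-brain barrier carriers at -1.56 to -1.11 and 0.15.

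With all 10 libraries 16947 genes were tested, of which 269 (1.59%) were higher and 256 (1.51%) lower at 6 hr by edgeR's quasi-likelihood F test at a Benjamini-Hochberg adjusted p under 0.05. Without replicate 6, 1131 of 17377 genes (6.51%) were higher and 1199 (6.90%) lower, and these included 265 of the 269 and all 256. With the series as a term, leaving out replicate 6 removes the only 6 hr library of series 1, so the fold changes of that fit rest on the 3 libraries of series 2 at 0 hr against the other 4 at 6 hr, and the 2 of series 1 do not enter the contrast. The median log2 fold change over all genes was 0.04 and -0.05. The shares of all genes called (1.59% and 1.51%, and 6.51% and 6.90% without replicate 6) are the background for counts of list members below. Calls with all 10 libraries rested on each library of series 2: 4 to 21 genes were higher and 1 to 3 lower when 0 hr replicate 3, 4 or 5 or 6 hr replicate 1, 3 or 4 was left out, 176 and 217 without 6 hr replicate 2, and 394 to 405 and 365 to 386 without 0 hr replicate 1 or 2. Without the term for library series 191 genes were higher and 7 lower. All 6 hr libraries lay above all 0 hr libraries for 193 genes (1.14%) and below for 121 (0.714%); without replicate 6 this held for 1297 (7.65%) and 1505 (8.88%).

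**Figure D2:**
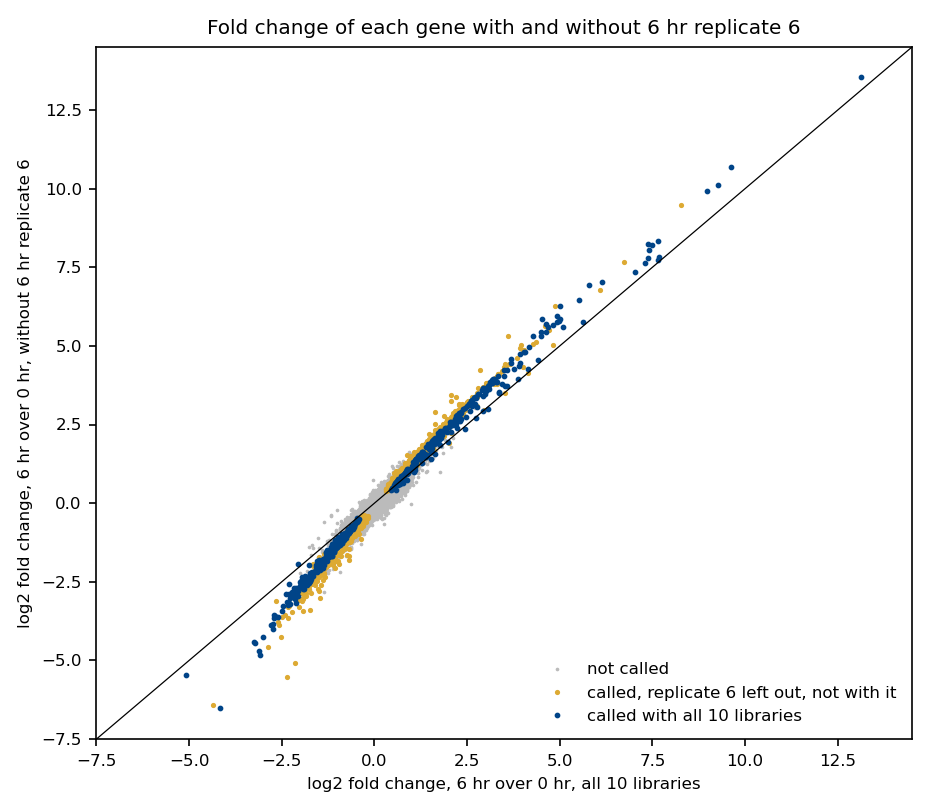
Each point is a gene tested in both fits, with its log2 fold change (6 hr over 0 hr) with all 10 libraries on the x axis and without 6 hr replicate 6 on the y axis. Blue marks the 269 higher and 256 lower genes called with all 10 libraries, yellow those called only without replicate 6, grey the rest, and the line equal values.

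Serum amyloid A3 (Saa3, chr7:46711998-46715700), an acute phase protein, was at 2.07, 0.1, 1.07, 1.06 and 0.73 CPM at 0 hr. At 6 hr it was at 1727, 1641, 1702 and 1608 CPM in replicates 1 to 4 and at 1.35 CPM in replicate 6. The log2 fold change was 9.63 ± 1.89 (SE, adjusted p = 0.0336) with all 10 libraries and 10.70 ± 0.60 (adjusted p = 1.76e-05) without replicate 6. The 4 responding libraries differed by little, and all lay above the 0 hr range. Lcn2 (chr2:32384633-32388252) was at 21.6, 26.8, 43.1, 24.8 and 6.37 CPM at 0 hr and at 6302, 5985, 9548, 8665 and 361 CPM at 6 hr. All 6 hr libraries lay above all 0 hr libraries, replicate 6 included, and the log2 fold change was 7.47 ± 0.99 (adjusted p = 0.0216) and 8.20 ± 0.73 (adjusted p = 0.00013) without replicate 6.

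Of 15 tested genes of the acute phase list 9 rose and none fell with all 10 libraries (1.59% of all genes rose), and 14 of 18 rose without replicate 6 (6.51% of all genes), where members at or near 0 at 0 hr pass the filter only through the 6 hr libraries; the median log2 fold changes were 3.35 and 4.35. Serpina3n, a serine protease inhibitor, went from 4.03 to 19.5 CPM at 0 hr to 145 to 522 CPM in replicates 1 to 4 and 50.4 CPM in replicate 6 (log2 fold change 4.14 ± 0.36, and 4.27 ± 0.43 without replicate 6). Ceruloplasmin (Cp), a copper-carrying ferroxidase, rose by 2.12 ± 0.40 on the log2 scale (2.57 ± 0.26 without replicate 6). Complement C3, the protein on which the complement pathways meet, was at 0.345, 0.6, 3.32, 0.785 and 3.9 CPM at 0 hr and at 23, 36, 28.1, 41.3 and 1.93 CPM at 6 hr. Its log2 fold change was 3.35 ± 0.47 (adjusted p = 0.0237) and 3.52 ± 0.48 without replicate 6. Of 20 tested complement genes C3 and C1ra rose, and without replicate 6 another 4 of 21 did, among them C1qa and C1qb by 0.69 and 0.71. Microglia are the known source of C1q in brain. The 14 microglial markers, which include C1qa, C1qb and C1qc, summed to 394 to 653 CPM at 0 hr and 334 to 576 CPM at 6 hr. Without replicate 6, C1qa and C1qb were the 2 microglial markers called higher, and 2 others were called lower. Whether those cells had a part in the C1q values was not tested.

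Adhesion receptors catch leukocytes from the blood, the selectins first and the immunoglobulin-type receptors after them. P-selectin (Selp, chr1:164115264-164150026) was at 0.115, 1, 0.492, 0.471 and 0.203 CPM at 0 hr and at 126, 153, 149, 71.5 and 0.867 CPM at 6 hr. It was the member of the list called higher with all 10 libraries (log2 fold change 7.37 ± 1.10, adjusted p = 0.0239, and 8.23 ± 0.51 without replicate 6). Icam1 (chr9:21015985-21028817), the receptor for leukocyte integrins, was at 56.5, 56.5, 26.4, 48.5 and 23.4 CPM and then at 755, 1138, 727, 306 and 46 CPM. It missed the threshold with all 10 libraries (3.66 ± 0.91, adjusted p = 0.0541) and passed without replicate 6 (4.41 ± 0.48, adjusted p = 0.000363). Vcam1 (1.57 ± 0.26), E-selectin (Sele, 6.27 ± 0.90), the chemokine-binding receptor Ackr1 (3.35 ± 0.36) and the nectin-like receptor Pvr (2.49 ± 0.24) were likewise called only without replicate 6. Icam2, carried by resting endothelium, and Cd34, a sialomucin, fell in both fits, Icam2 from 65.3 to 155 CPM to 31.3 to 45.5 CPM in replicates 1 to 4 and 64.3 CPM in replicate 6. In all, 1 of 16 tested members rose and 2 fell with all 10 libraries (1.59% and 1.51% of all genes). Without replicate 6, 7 of 17 rose and 2 fell (6.51% and 6.90% of all genes).

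The promoter of Icam1 holds 1 match to an NF-kappaB site, read here as GGANTTTCC or GGGANTTCC on either strand. The window searched runs from 250 bases before to 50 after the start. The promoters of Sele, Selp and Lcn2, also described above, held no such match. The Icam1 stretch from RefSeq (GRCm38.p6, chr9:21015747-21015835, plus strand) is shown because it holds a match, given in capitals.
Icam1: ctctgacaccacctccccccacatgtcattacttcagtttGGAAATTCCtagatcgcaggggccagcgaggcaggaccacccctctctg
Such a match stood in 4.19% of the 11951 tested genes with a promoter in the table, in 5.8% of those called higher and 1.64% of those called lower with all 10 libraries, and in 8.28% and 3.04% without replicate 6. Among the 28 listed NF-kappaB factors and feedback genes 11 of 23 with a promoter had one. A match is a description of the letters and not of binding.

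Of 19 tested chemokines 7 rose and none fell with all 10 libraries, and 18 of 24 rose and 1 fell without replicate 6, but several of the 24 passed the filter on low counts only through the 6 hr libraries. Cxcl1 (chr5:90891241-90893115), which draws neutrophils through Cxcr2, was at 0.691, 1.4, 0.82, 2.51 and 1.91 CPM at 0 hr and at 2087, 3448, 1387, 275 and 1.64 CPM at 6 hr (8.98 ± 1.90, adjusted p = 0.0389, and 9.93 ± 1.02 without replicate 6). Replicate 4 was the lowest of the 4 responding libraries, and this recurred: Ccl2, which draws monocytes, was at 960 CPM at most and 53.8 CPM in replicate 4, and Cxcl10, a ligand of Cxcr3 on T cells, at 783 to 810 CPM in replicates 1 to 3 and 52.4 CPM in replicate 4. Cxcl9 and Ccl5 rose in both fits (7.41 and 7.02; 8.04 and 7.35 without replicate 6). Ccl11, an eosinophil chemokine, was at 0.162 to 0.353 CPM at 0 hr and 26.7 to 75.6 CPM in replicates 1 to 4. The member that fell was Cxcl12, a chemokine made by brain ECs at rest, from 417 to 1491 CPM to 58.8 to 210 CPM in replicates 1 to 4 and 1088 CPM in replicate 6; it was called lower only without replicate 6 (-2.49 ± 0.42).

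Among cytokines G-CSF (Csf3, chr11:98701263-98703629), the growth factor of neutrophils, had 9 reads in all over the 5 libraries at 0 hr and 7493 to 42821 reads in each of replicates 1 to 4. In CPM it was at 0.23, 0, 0.082, 0.0785 and 0.122 and then at 1343, 2048, 1298, 307 and 0.963. Against a limit of 3 counts per 0 hr library, which is at most 0.345 CPM, the lowest of replicates 1 to 4 was at least 888-fold higher. Il6 had 8 reads at 0 hr and 149 to 1898 reads in replicates 1 to 4, at least 17.7-fold higher against the same limit. Tnf had no read in any 0 hr library or in replicate 6 and 15 to 154 reads in replicates 1 to 4, at least 1.78-fold higher. Of 13 tested cytokine genes 1 rose with all 10 libraries and 9 of 17 without replicate 6, and none fell; Il6, Tnf and other members passed the filter on low counts only through the 6 hr libraries. Markers of neutrophils summed to 8.52 to 68.4 CPM at 0 hr and 10.5 to 61 CPM in 6 hr replicates 1, 3, 4 and 6, and to 524 CPM in replicate 2, where S100a8 stood at 223 and S100a9 at 215 CPM and Ly6g at 0.191 CPM. Their part in the high cytokine values of replicate 2 was not tested.

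**Figure D3:**
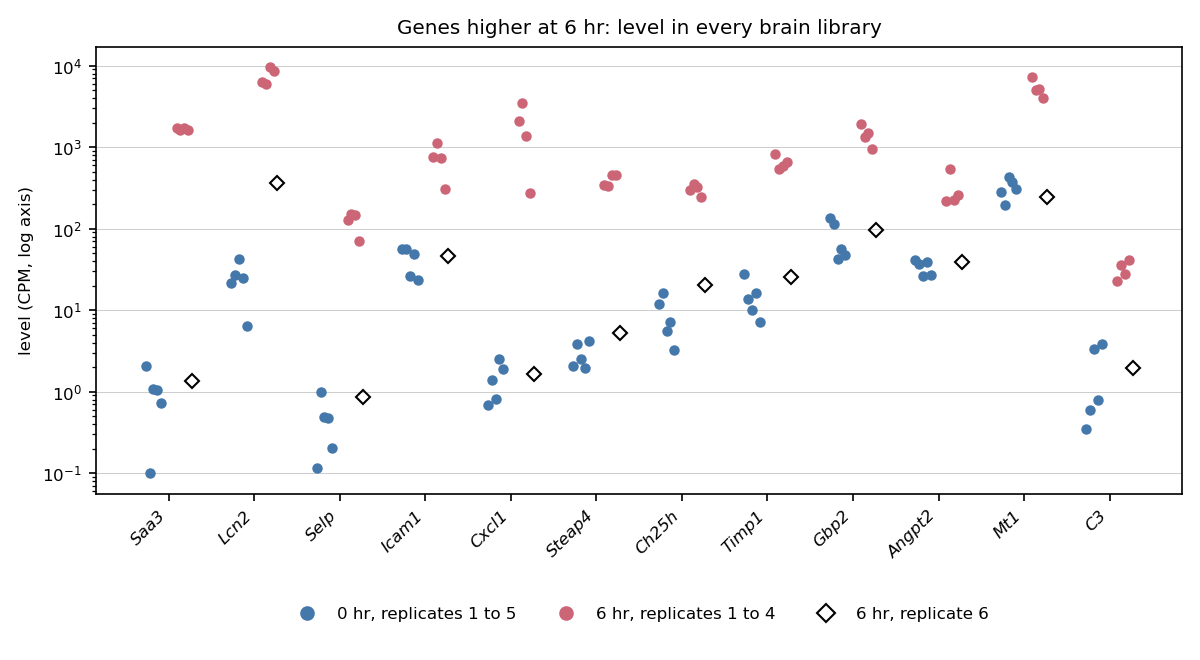
Level in CPM on a log axis of 12 genes higher at 6 hr in each of the 10 brain libraries, with 0 hr in blue, 6 hr replicates 1 to 4 in red and 6 hr replicate 6 as an open diamond. Saa3 stood at 0.1 to 2.07 CPM at 0 hr and 1608 to 1727 CPM in replicates 1 to 4, and the diamond lies within the 0 hr range for Saa3, Icam1 and Gbp2 and above it for Lcn2.

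Receptors and adaptors of TLR4, IL-1 and TNF moved in 1 direction. Cd14, which hands LPS to Tlr4, was the 1 of 21 tested members that rose with all 10 libraries, from 2.35 to 5.18 CPM to 186 to 368 CPM in replicates 1 to 4 and 3.18 CPM in replicate 6 (5.53 ± 1.23, and 6.44 ± 0.33 without replicate 6). Without replicate 6, 14 of 22 rose and none fell, among them Tlr2 (4.44 ± 0.51), the brake Irak3 (3.46 ± 0.30) and Tlr4 itself by 1.25 ± 0.26, from 2.99 to 7.94 CPM to 6.67 to 11 CPM. Of NF-kappaB factors and feedback genes 4 of 27 rose with all 10 libraries (1.59% of all genes). Without replicate 6, 20 of 28 rose (6.51% of all genes), and none fell in either fit. The 4 were Nfkbiz (3.56), Zc3h12a (3.14), Birc3 (2.82) and Map3k8 (2.72); Nfkbiz encodes a nuclear cofactor of NF-kappaB and Zc3h12a a ribonuclease that cuts cytokine mRNA. The inhibitors Nfkbia (2.13 ± 0.32) and Tnfaip3 (4.12 ± 0.60) were called only without replicate 6. Of JAK, STAT and SOCS genes 5 of 26 rose with all 10 libraries, led by Socs3, the feedback inhibitor of IL-6 signalling, which went from 4.63 to 11.2 CPM to 159 to 535 CPM in replicates 1 to 4 and 7.32 CPM in replicate 6 (4.62 ± 1.08, and 5.45 ± 0.48 without it). Without replicate 6, 15 of 26 rose and 1 fell (6.51% and 6.90% of all genes).

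Interferon-stimulated genes were the list with the most called members. Of 47 tested 20 rose and none fell with all 10 libraries, and 47 of 48 rose without replicate 6, against 6.51% of all genes; the medians were 2.33 and 2.90. Zbp1, a sensor of Z-form nucleic acid, rose by 4.82 ± 1.00 with all 10 libraries and was at 140 to 277 CPM in replicates 1 to 4. Ifi44 (3.07), Isg20 (4.18), an RNA exonuclease, and Oasl2 (2.33), an oligoadenylate synthetase-like protein, also rose in both fits. Rsad2 (viperin) was at 19.9, 19.1, 7.01, 6.48 and 12 CPM at 0 hr and at 422, 344, 386, 49.9 and 18.7 CPM at 6 hr, and was called only without replicate 6 (5.07). Here too replicate 4 was the lowest of the 4.

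The guanylate-binding proteins and immunity-related GTPases attack vacuoles of pathogens and respond to interferon. Of 17 tested 4 rose with all 10 libraries and 17 of 18 without replicate 6, and none fell. Gbp2 (chr3:142620602-142638008) was at 134, 113, 42, 55.8 and 48 CPM at 0 hr and at 1909, 1343, 1493, 959 and 96.2 CPM at 6 hr (4.03 ± 0.93, adjusted p = 0.0475; 4.80 ± 0.29, adjusted p = 2.42e-05 without replicate 6). At 0 hr its 2 libraries of series 1 were the highest, and replicate 6 lay between them and the others. Genes of MHC class I presentation, which show peptides to CD8 T cells, rose in 3 of 23 tested with all 10 libraries (H2-Q4 from 58.7 to 96.8 CPM at 0 hr to 344 to 679 CPM in replicates 1 to 4 and 83.9 CPM in replicate 6, H2-T23 by 1.21 and H2-M3 by 1.10 on the log2 scale) and in 19 without replicate 6, among them the peptide pump Tap1 (3.11 ± 0.40) and B2m (1.15 ± 0.23). H2 genes are near-identical copies, so reads may be split between them. Of 8 tested MHC class II genes none was called by edgeR with all 10 libraries, nor any of 9 without replicate 6.

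Promoters of Cxcl10, Ifit1, Rsad2 and Isg15 are shown because each holds a match to GAAANNGAA on either strand, marked in capitals. These letters are the core of the interferon-stimulated response element. The promoter of Ifit2, another interferon-stimulated gene, held no such match. The stretches are from RefSeq (GRCm38.p6, bases before the start). They are chr5:92349054-92349139 (minus strand) for Cxcl10, chr19:34640740-34640853 (plus) for Ifit1, chr12:26456523-26456611 (minus) for Rsad2 and chr4:156200836-156200936 (minus) for Isg15.
Cxcl10: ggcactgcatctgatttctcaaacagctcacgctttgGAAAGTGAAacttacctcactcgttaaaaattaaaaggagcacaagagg
Ifit1: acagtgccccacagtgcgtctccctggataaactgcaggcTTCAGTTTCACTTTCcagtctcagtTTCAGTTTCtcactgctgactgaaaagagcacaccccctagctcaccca
Rsad2: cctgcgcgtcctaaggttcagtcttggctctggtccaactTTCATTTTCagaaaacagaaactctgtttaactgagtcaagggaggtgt
Isg15: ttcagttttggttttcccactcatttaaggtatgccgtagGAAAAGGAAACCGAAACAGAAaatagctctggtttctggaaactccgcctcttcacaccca
Ifit1 and Isg15 hold 3 matches each, some of which overlap one another. A match stood in 8.64% of tested genes, in 19.8% of those called higher and 8.74% of those called lower with all 10 libraries (17.9% and 7.55% without replicate 6), in 19 of 35 interferon-stimulated genes with a promoter in the table and in 10 of 11 guanylate-binding and immunity-related GTPases. Ifit1 itself was at 72.7 to 148 CPM at 0 hr, 243 to 1314 CPM in replicates 1 to 4 and 164 CPM in replicate 6, and Isg15 at 45.9 to 82.9, 337 to 1043 and 72.5 CPM.

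Carriers and pumps of the blood-brain barrier were the list with the most genes that fell. Of 31 tested 14 fell and none rose with all 10 libraries, against 1.51% of all genes, and 22 fell and 2 rose without replicate 6; the medians were -0.90 and -1.18. The glutamine and neutral amino acid carrier Slc38a5 (chrX:8271133-8280179) was at 65.6, 129, 36.1, 41.4 and 37.7 CPM at 0 hr and at 2.13, 1.44, 3.59, 3.81 and 65.4 CPM at 6 hr (-2.79 ± 0.56, adjusted p = 0.035, and -3.87 ± 0.34 without replicate 6). Slc7a5 (chr8:121881150-121907694), which carries large neutral amino acids and L-DOPA, was at 1036, 980, 607, 701 and 686 CPM and then at 112, 113, 98.2, 148 and 816 CPM (-1.85 ± 0.35; -2.57 ± 0.18). In both, replicates 1 to 4 lay below every 0 hr library and replicate 6 within their range. The iron exporter ferroportin (Slc40a1) went from 61.7 to 179 CPM to 3.94 to 9.46 CPM in replicates 1 to 4 and 125 CPM in replicate 6 (-2.74 ± 0.61, and -3.86 ± 0.35 without it). The thyroid hormone carrier Slco1c1 fell by 2.18 ± 0.45 on the log2 scale and the efflux pumps Abcb1a (P-glycoprotein) and Abcg2 by 1.66 ± 0.36 and 0.84 ± 0.17. Slco1a4, an organic anion carrier, was at 290 to 1090 CPM at 0 hr, 17.5 to 90.3 CPM in replicates 1 to 4 and 1048 CPM in replicate 6, and was called only without replicate 6 (-3.62 ± 0.56).

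Mfsd2a (chr4:122946850-122961188), the carrier of lysophospholipids with docosahexaenoic acid that also restrains transcytosis in brain ECs, was at 120, 189, 112, 142 and 121 CPM at 0 hr and at 41.6, 62, 47, 63.5 and 109 CPM at 6 hr. All 6 hr libraries lay below all 0 hr libraries, and the log2 fold change was -1.02 ± 0.19 (adjusted p = 0.033) and -1.29 ± 0.21 without replicate 6. Not every carrier fell: the glucose carrier Slc2a1 was at 1202 to 2788 CPM at 0 hr and 832 to 1551 CPM in replicates 1 to 4 and was not called in either fit (-0.34 ± 0.22; -0.35 ± 0.26), nor was the transferrin receptor Tfrc (-0.55 ± 0.38), and the glutamate carrier Slc1a1 was called higher without replicate 6 (0.69 ± 0.17).

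**Figure D4:**
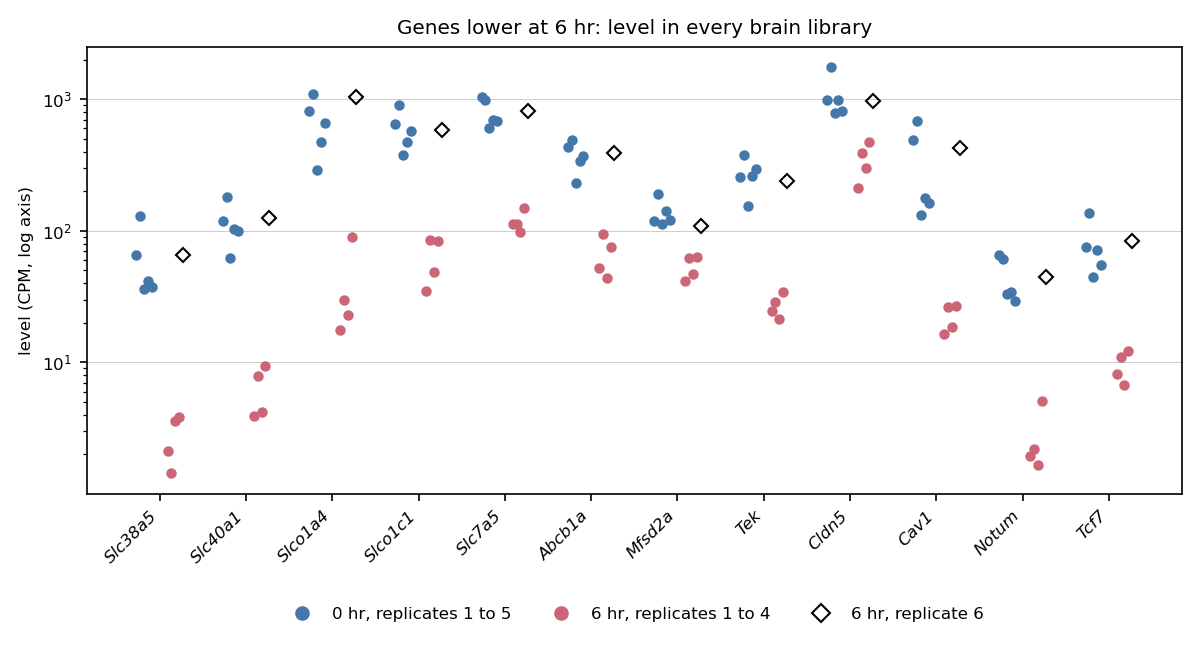
Level in CPM on a log axis of 12 genes lower at 6 hr in each of the 10 brain libraries, with 0 hr in blue, 6 hr replicates 1 to 4 in red and 6 hr replicate 6 as an open diamond. Slc38a5 went from 36.1 to 129 CPM to 1.44 to 3.81 CPM in replicates 1 to 4, and the diamond lies within the 0 hr range for all but Mfsd2a.

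None of 21 tested junction genes was called in either direction with all 10 libraries (edgeR; median -0.15), and 5 fell and 1 rose without replicate 6. Claudin 5 (Cldn5, chr16:18776847-18778262), the main claudin of brain ECs, was at 982, 1749, 784, 994 and 818 CPM at 0 hr and at 213, 394, 301, 477 and 963 CPM at 6 hr (-1.09 ± 0.27, adjusted p = 0.0534; -1.39 ± 0.30, adjusted p = 0.0135 without replicate 6). Occludin (Ocln, -0.99 ± 0.28), Tjp1 (-0.84 ± 0.22) and afadin (Afdn, -0.81 ± 0.18) were also called lower only without replicate 6. VE-cadherin (Cdh5, chr8:104101625-104144511) was at 367, 325, 188, 237 and 261 CPM and then at 420, 833, 456, 336 and 304 CPM, the groups overlapping, and was called higher only without replicate 6 (1.09 ± 0.30, adjusted p = 0.0415). The promoter of Cdh5 also drives the Cre of these mice.

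Genes that define endothelium fell in part. Of 25 tested 8 fell and none rose with all 10 libraries (1.51% and 1.59% of all genes). Without replicate 6, 14 fell and 3 rose (6.90% and 6.51% of all genes). The medians were -0.86 and -1.19. The angiopoietin receptor Tek (Tie2, chr4:94739289-94874976) was at 256, 379, 155, 260 and 293 CPM at 0 hr and at 24.4, 28.7, 21.4, 34.4 and 241 CPM at 6 hr (-2.31 ± 0.45, adjusted p = 0.0336, and -3.18 ± 0.26 without replicate 6). Its partner Tie1 (-1.01), the VEGF receptor Kdr (-1.29), the transcription factors Sox18 (-2.18) and Sox17 (-1.68) and the receptors Clec14a (-1.94) and Icam2 (-1.05) fell in both fits. Pecam1 (-0.27 ± 0.23) and the other VEGF receptor Flt1 (-0.37 ± 0.27) were not called. Angiopoietin 2 (Angpt2, chr8:18690263-18741562), a Tek ligand stored in Weibel-Palade bodies, was at 41.7, 37, 26.2, 39.1 and 27.1 CPM at 0 hr. It rose to 218, 542, 226 and 256 CPM in replicates 1 to 4, with 38.8 CPM in replicate 6 (2.64 ± 0.61, adjusted p = 0.048, and 3.27 ± 0.37 without replicate 6). The vessel dilator adrenomedullin (Adm) rose by 2.19 ± 0.47, whereas its receptor partner Ramp2 was called lower only without replicate 6 (-2.42 ± 0.37).

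Wnt pathway genes of brain vessels fell as well, 7 of 22 with all 10 libraries (1.51% of all genes). Without replicate 6, 15 fell and 1 rose (6.90% and 6.51% of all genes). The medians were -0.81 and -1.09. Notum (chr11:120653788-120661175), a Wnt target and inhibitor, was at 65.1, 61.4, 33.2, 34.3 and 29.2 CPM at 0 hr and at 1.95, 2.2, 1.65, 5.12 and 44.2 CPM at 6 hr (-2.61 ± 0.53, adjusted p = 0.0351, and -3.62 ± 0.35 without replicate 6). The pathway's transcription factor Tcf7 (-1.91), the feedback inhibitor Nkd1 (-1.55), the Wnt7 co-receptor Adgra2 (Gpr124, -1.44), the receptor Tnfrsf19 (Troy, -1.40) and the factor Foxq1 (-1.08) fell in both fits. Lef1 was not called (-0.37 ± 0.16), and the receptor Fzd4 was called higher without replicate 6 (1.07 ± 0.17).

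Caveolar genes fell in the same libraries: Cav1 (chr6:17306335-17341452) was at 487, 678, 132, 178 and 162 CPM at 0 hr and at 16.4, 26.2, 18.5, 26.9 and 428 CPM at 6 hr (-2.13 ± 0.39, adjusted p = 0.033, and -2.91 ± 0.23 without replicate 6). Here the series 1 libraries were above those of series 2 at 0 hr, and replicate 6, also of series 1, lay nearest to them. Cav2 (-1.49) and the neonatal Fc receptor Fcgrt (-1.81), which recycles IgG, fell in both fits. Plvap, the protein of fenestral diaphragms, was at 13.6 to 40.8 CPM at 0 hr and 8.11 to 25 CPM at 6 hr and was not called (-0.73 ± 0.35). Of 20 tested caveolae and transcytosis genes 5 fell and 1 rose with all 10 libraries (1.51% and 1.59% of all genes). Without replicate 6, 8 fell and 2 rose (6.90% and 6.51% of all genes).

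In vascular tone and clotting the calls were fewer. The vessel-protective factor Klf4 fell by 1.19 ± 0.26, Klf2 was not called (-0.24 ± 0.20), and the nitric oxide synthase Nos3 was called lower only without replicate 6 (-0.80 ± 0.22). The urokinase receptor Plaur went from 2.84 to 9 CPM to 139 to 357 CPM in replicates 1 to 4 and 9.15 CPM in replicate 6 (5.01 ± 1.02, and 5.87 ± 0.41 without it). The protein C receptor Procr (1.26 ± 0.30) and von Willebrand factor (Vwf, -1.45 ± 0.32) were called only without replicate 6, while thrombomodulin (Thbd, -0.33 ± 0.27) and tissue factor (F3, -0.58 ± 0.28) were not called in either fit. Of prostaglandin genes Ptgs2 (cyclooxygenase 2) was at 6.48 to 24.2 CPM at 0 hr and 143 to 789 CPM in replicates 1 to 4, and together with the prostaglandin E synthase Ptges (3.06 ± 0.46) it was called higher only without replicate 6 (5.49 ± 0.64). The prostacyclin synthase Ptgis fell there by 1.55 ± 0.22 on the log2 scale.

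Proteases of the matrix and their inhibitors rose in 5 of 20 tested with all 10 libraries (1.59% of all genes), where none fell. Without replicate 6, 8 of 21 rose (6.51% of all genes) and Adamtsl4 fell (-0.99 ± 0.21). Timp1 (chrX:20870166-20874735), an inhibitor of metalloproteases, was at 28, 13.9, 10.1, 16.3 and 7.18 CPM at 0 hr and at 824, 533, 591, 650 and 25.2 CPM at 6 hr (4.99 ± 1.04, adjusted p = 0.0368, and 5.79 ± 0.40 without replicate 6). Adamts4 (3.08) and Adamts1 (2.80), which cut proteoglycans, rose in both fits. The basement membrane collagen genes Col4a1 and Col4a2 were called higher only without replicate 6 (1.60 and 1.51), and the matrix protein Vwa1 fell in both fits (-1.27 ± 0.24).

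Of 24 tested glucocorticoid-responsive genes 8 rose and 1 fell with all 10 libraries, the receptor gene Nr3c1 itself (-0.66 ± 0.14, and -0.87 ± 0.15 without replicate 6), and 13 rose and 1 fell without replicate 6. Cebpd (3.49 ± 0.53) and Cebpb (2.63 ± 0.54), factors of the acute phase, Errfi1 (3.05 ± 0.66), an inhibitor of EGF receptor signalling, and the cell cycle inhibitor Cdkn1a (2.61 ± 0.60) were among the 8. Fkbp5 (0.94 ± 0.40) and Per1 (0.42 ± 0.20), which respond to corticosterone in many tissues, were not called in either fit. Metallothionein 1 (Mt1, chr8:94179082-94180327), which binds zinc and copper, was at 282, 196, 433, 370 and 310 CPM at 0 hr and at 7180, 5002, 5103, 4012 and 242 CPM at 6 hr (3.10 ± 0.68, adjusted p = 0.0407, and 3.77 ± 0.31 without replicate 6). The zinc importer Slc39a14 rose by 1.89 ± 0.39 (2.35 ± 0.22 without replicate 6) and the importer Slc39a8 fell by 0.74 ± 0.15. Sod2, the mitochondrial superoxide dismutase, rose by 2.23 ± 0.53 (2.80 ± 0.30 without replicate 6).

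Sterol and iron genes were called too. Cholesterol 25-hydroxylase (Ch25h, chr19:34473778-34475164), which makes an antiviral oxysterol, was at 12, 16.1, 5.58, 7.23 and 3.29 CPM at 0 hr and at 296, 356, 324, 242 and 20.4 CPM at 6 hr, all 6 hr libraries above all 0 hr libraries (4.94 ± 0.94, adjusted p = 0.033, and 5.76 ± 0.31 without replicate 6). Cyp7b1, which breaks that oxysterol down, rose by 1.53 ± 0.23 (1.82 ± 0.12 without replicate 6). Part of the exons of Ch25h (159 bases) lies opposite another gene. The metalloreductase Steap4 (chr5:7960457-7982213) was at 2.07, 3.8, 2.5, 1.96 and 4.18 CPM and then at 342, 331, 451, 450 and 5.3 CPM, again with no overlap (6.14 ± 1.10, adjusted p = 0.0303, and 7.02 ± 0.35 without replicate 6).

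The clock output gene Dbp (chr7:45705088-45710203) fell in both fits, from 188, 279, 268, 209 and 249 CPM to 87.2, 72.3, 70.9, 65.3 and 178 CPM (-1.32 ± 0.23, adjusted p = 0.0303, and -1.78 ± 0.17 without replicate 6), and Nfil3, which acts against Dbp, rose by 1.73 ± 0.33 (2.09 ± 0.25 without replicate 6). The hour of collection is not in the labels, and its part in these values was not tested. Nr1d1 was not called (-0.60 ± 0.21), and of 19 clock genes tested 1 rose and 1 fell, against 1.59% and 1.51% of all genes; without replicate 6, 2 rose and 1 fell, against 6.51% and 6.90%.

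Other genes with large changes in both fits were Wfdc1 (-1.74), a secreted protein with a protease inhibitor fold, the LIM protein Crip1 (-1.96), the guidance cue Sema3c (-1.15), the TNF-family ligand Tnfsf12 (-1.48), the carbonic anhydrase Car4, the lysyl oxidase Lox (2.56), which crosslinks collagen, and the regulator of G protein signalling Rgs16 (2.74). Crip1 was at 99.4 to 134 CPM at 0 hr and at 14.6, 51.7, 14.2, 12.4 and 56.2 CPM at 6 hr, and all 6 hr libraries lay below all 0 hr libraries.

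Of 33 genes of the nuclear-encoded respiratory chain none was called by edgeR in either fit, with medians of 0.01 and -0.08. Of 83 cytosolic ribosomal proteins none was called with all 10 libraries and 4 of 84 rose without replicate 6 (median 0.11), where 6.51% of all genes did. Of 28 cell cycle genes 1 rose with all 10 libraries (1.59% of all genes). Of 29 without replicate 6, 2 rose and 1 fell (6.51% and 6.90% of all genes).

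RNA of other cells was present, as pull-downs carry some. The 20 neuron markers summed to 3363 to 12190 CPM at 0 hr and 5466 to 16250 CPM at 6 hr, with the 3 libraries of series 1 lowest (3363 to 5466 CPM), and none was called. Of mural cell markers Rgs5, a pericyte gene, differed by library more than by time. It was at 1209 and 2266 CPM in 0 hr replicates 3 and 5. In 6 hr replicate 2 it was at 3336 CPM, and in the other 7 libraries at 20.4 to 122 CPM. Gfap, an astrocyte gene, followed the same libraries, with 2950 CPM in 6 hr replicate 2. The 14 mural markers summed to 1748 to 4168 CPM at 0 hr. At 6 hr they summed to 1091, 5135, 781, 1433 and 2047 CPM in replicates 1, 2, 3, 4 and 6. None was called with all 10 libraries, and Anpep alone was called lower without replicate 6 (-2.31 ± 0.54). Anpep was at 35.1 to 120 CPM at 0 hr, 3.55 to 22.4 CPM in replicates 1 to 4 and 96.3 CPM in replicate 6. Of the 15 astrocyte markers Aldh1l1 (0.62 ± 0.12) and Agt (0.59 ± 0.12) were called higher with all 10 libraries (1.59% of all genes), and none lower. Without replicate 6, Aldh1l1 was the 1 called higher and 1 other was called lower (6.51% and 6.90% of all genes). The markers summed to 3084 to 8076 CPM at 0 hr and 3949 to 11290 CPM at 6 hr, and their part in the results was not tested. Of monocyte markers Ms4a4c, Plac8 and Ms4a6c rose in both fits, the list summing to 5.87 to 24.9 CPM at 0 hr and 9.06 to 59.6 CPM at 6 hr, and their part in the chemokine values was not tested. The mean log2 CPM of the neuron, astrocyte and oligodendrocyte markers was also fitted as a further term (the brain cell marker term). With it and replicate 6 left out, 1055 genes were higher and 1217 lower. That term holds no mural, microglial or monocyte markers.

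The same comparison in heart and lung asked where the brain response was its own. In 1 fit of the 3 tissues (18975 genes), the response differed between brain and heart for 25 genes (0.132%), more positive in brain for 1 (0.00527%) and more negative for 24 (0.126%). Without the 6 hr libraries of series 1 of the 3 tissues the number was 746 (3.83%), 478 more positive and 268 more negative in brain. Against lung 1463 genes (7.71%) differed, 704 (3.71%) more positive and 759 (4.00%) more negative in brain, and 1615 (8.29%) without those libraries. The lung libraries at 6 hr had 3.4 to 33.87% of reads on genes and as few as 284457 counts, against 18.83 to 56.16% at 0 hr, and the part of this in the differences from lung was not tested.

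Barrier carriers were among the differences from heart. Slc7a5, Mfsd2a and the cationic amino acid carrier Slc7a1 differed, all more negative in brain, which is 3 of 31 tested carriers, and without the series 1 libraries 8 were more negative and 1 more positive. Slc7a5 fell in brain and was at 15.5 to 28.9 CPM at 0 hr and 62.3 to 98.3 CPM at 6 hr in the other 4 heart libraries, a difference of -3.88 ± 0.80 in log2 fold change (adjusted p = 0.0358). For Mfsd2a the difference was -6.11 (adjusted p = 0.0231), but in heart the gene was at 0.0375 to 0.195 CPM at 0 hr and at most 3.42 CPM at 6 hr. Slc2a1, not called in brain, differed from lung by -2.64, and without the series 1 libraries from heart too. Its lung levels were low, at 2.53 to 14.0 CPM at 0 hr. The lung libraries at 6 hr outside series 1 overlapped these, at 5.1 to 21.7 CPM. Slc40a1 fell in brain by 2.74 and differed from both tissues only without the series 1 libraries. Esm1 was the gene more positive in brain, where it was at 2.11 to 12 CPM at 0 hr. At 6 hr it was at 12.2 to 25.4 CPM in brain replicates 1 to 4 and 9.43 CPM in replicate 6. In heart it was at 23.5 to 46.4 CPM at 0 hr. At 6 hr it was at 29.6 CPM in the heart library of series 1 and 1.71 to 4.44 CPM in the other 4.

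Against lung, C3 (3.08), Plaur (4.72), Cebpd (4.22) and the IL-4 receptor Il4ra (3.18) were more positive in brain. Slc7a5 (-4.61), Slc39a8 (-3.17), Cxcl12 (-3.09) and Vwa1 (-4.85) were more negative. Heart libraries outside series 1 were higher at 6 hr for Cebpd, Plaur and C3 too. There Cebpd went from 25.61 to 60.26 CPM to 779.1 to 1746 CPM. Plaur went from 20.1 to 32.25 CPM to 212.9 to 414.9 CPM, and C3 from 24.2 to 38.11 CPM to 84.27 to 110.5 CPM. C3 differed from heart only without the series 1 libraries (2.34). Slc7a5 in lung was at 4.335 to 9.017 CPM at 0 hr and 6.192 to 98.21 CPM at 6 hr outside series 1. Thbd differed by 4.64, with a log2 fold change of -4.91 in lung. The interferon-stimulated and the guanylate-binding genes held no gene of 48 and of 18 tested whose response differed between brain and heart by edgeR, in either set of libraries, and none against lung with all libraries (1 of each list without those of series 1), which does not show that the responses were alike.

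**Figure D5:**
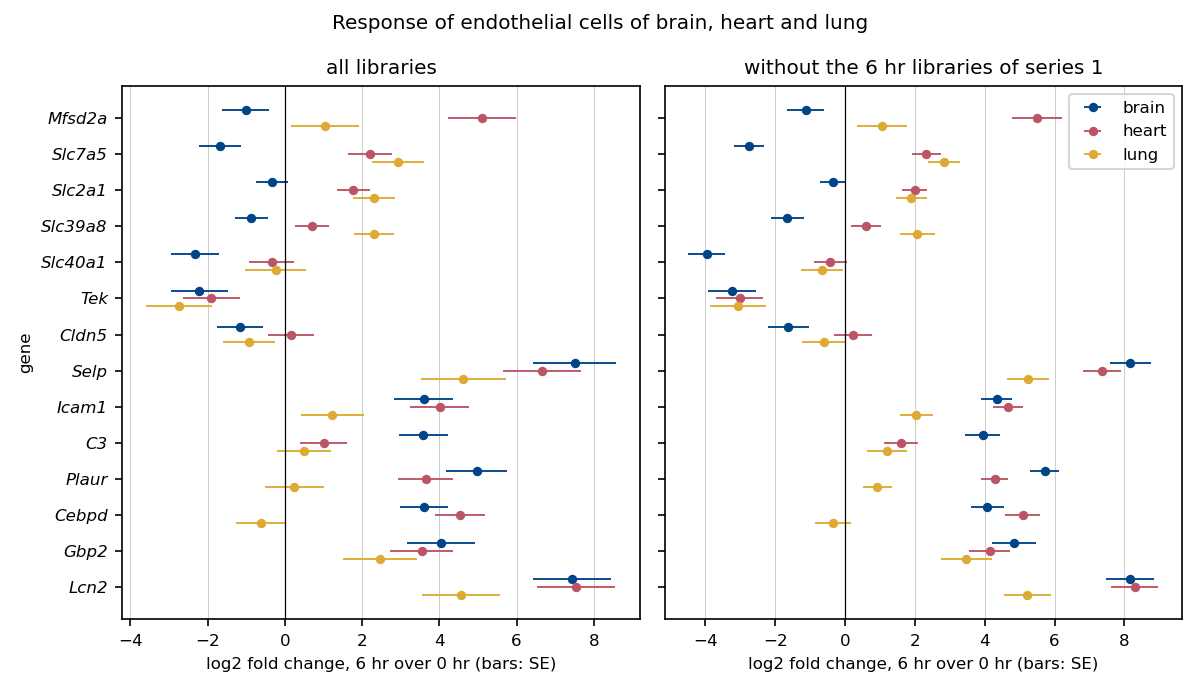
Log2 fold change at 6 hr over 0 hr (x axis, bars are SE) of 14 genes in ECs of brain, heart and lung, from 1 fit of the 3 tissues with all libraries (left) and without the 6 hr libraries of series 1 (right). Mfsd2a, Slc7a5 and Slc2a1 lie left of 0 in brain and right of 0 in heart and lung. In lung these genes were low at 0 hr (at most 6.27, 9.02 and 14.0 CPM), and their 0 hr and 6 hr libraries overlapped. Plaur, Cebpd and C3 lie farther right in brain than in lung.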

How the data were processed

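The deposited files hold raw counts of reads per gene, which the authors made, per the labels, with STAR 2.4.2 and HTSeq 0.6.1 on mm10; the annotation release and the strand setting are not given in the sources used here. Count files of the same tissue, time and replicate number were summed per library, and rows of reads outside genes were left out. Brain at 6 hr was compared with 0 hr by edgeR 4.0.16 in R 4.3.3 (TMM scaling, filterByExpr, quasi-likelihood F test, two-sided, library series as covariate, Benjamini-Hochberg adjusted p under 0.05), and heart and lung entered a fit with interaction terms. Each SE was obtained by dividing the size of the fitted change by sqrt(F). The script was tested on simulated data. Alternatives used DESeq2 1.42.0, limma 3.58.1 and sva 3.50.0.

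The members and lists were chosen with earlier results of these data known. Named genes are the 12 highest and 12 lowest called genes whose groups do not overlap, up to 4 called members per list and direction, and a set of known genes; the rule was also applied without 6 hr replicate 6. Ifit1, Isg15, Esm1, Slc7a1 and the markers of other cells were named after their values were seen. Fits without replicate 6 or without the 6 hr libraries of series 1, and those with Y-linked reads, were added after seeing the data. Coordinates come from the annotation of GRCm38, the assembly of mm10. Values of some called genes are not reported here.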

Additional observations from a re-analysis of the deposited data

Results flagged for a closer look

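In 15 of 44 groups of libraries examined, 1 library stood farther from the rest than Dixon's critical value of 0.71 for 5 libraries. In all 15 it was 6 hr replicate 6. The usual chance of about 1 in 20 does not apply here. These genes all respond and share this library, so they are not independent draws. Some were also named by their change without replicate 6, so part of the gap was set by that choice. The gap as a share of the range of the 6 hr libraries was 0.990 for Saa3, 0.931 for Steap4, 0.875 for Timp1, 0.865 for Ch25h, 0.857 for Lcn2, 0.850 for Selp, 0.828 for Mt1, 0.806 for C3, 0.769 for Gbp2 and 0.749 for Csf3, where this library was the lowest. It was 0.848 for Cav1, 0.807 for Slc7a5, 0.805 for Tek, 0.751 for Slc38a5 and 0.711 for Dbp, where it was the highest.

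By edgeR's interaction term the 6 hr response differed between brain and heart for 25 genes, among them Mfsd2a (-6.11, brain minus heart on the log2 scale) and Slc7a5 (-3.88). Between brain and lung it differed for 1463 genes, among them Plaur (4.72), Thbd (4.64), Cebpd (4.22), H2-Q4 (3.23), Wfdc1 (3.22), Il4ra (3.18), C3 (3.08), Slc2a1 (-2.64), Cxcl12 (-3.09), Slc39a8 (-3.17), Nfil3 (-3.56), Slc7a5 (-4.61) and Vwa1 (-4.85).

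The 6 hr library left out for its low share of reads on genes (replicate 5) held 222 counts of Lcn2, 189 of Cxcl1 and 92 of Saa3, against 0 of each in the 0 hr library left out for the same reason.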

How the results depend on the processing

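The numbers of genes called moved with the libraries and the tool. Against 269 higher and 256 lower genes, DESeq2 called 988 and 802, limma-voom 516 and 393, ComBat followed by limma 1227 and 1079, edgeR without the filter 626 and 578, without the series term 191 and 7, with series 2 alone 1028 and 1001, with all brain times 810 and 428, with the brain cell marker term 541 and 348, and with all 12 libraries 401 and 348; a log2 fold change of at least 1 left 220 and 170. Without replicate 6 the numbers were 1117 and 1309 by limma-voom, 1646 and 1356 by DESeq2, 1292 and 992 with RLE scaling, 1055 and 1217 with the marker term and 1196 and 1240 with Y-linked reads as a term. Leaving out 1 library at a time gave 4 to 1131 higher and 1 to 1199 lower genes. With the replicate block 536 genes were higher and 444 lower. The deviations of same-numbered libraries from the mean of their time correlated at -0.468 to 0.399, with series not removed. Numbers 1 and 2 are of series 1 at 0 hr and series 2 at 6 hr. Numbers 3 and 4, of series 2 at both times, gave 0.298 and 0.399. Differing numbers of that series gave -0.418 to 0.554, so this check cannot decide whether the numbers pair the libraries. The response of brain and heart differed for 549 genes in a fit of these tissues alone, 14 by limma-voom (10 of them more positive in brain) and 746 without the 6 hr libraries of series 1. That of brain and lung differed for 590 genes in a fit of these alone and 391 by limma-voom. Of 132 named genes Thbd alone changed direction, with log2 fold changes of -0.54 to 0.01 when 1 library was left out, 0.01 without 0 hr replicate 4. The causes were not tested.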
